A study of Mus musculus with 4 samples.

Results

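Moxd1 (monooxygenase DBH-like 1), Dbh (dopamine beta-hydroxylase) and Pam (peptidylglycine alpha-amidating monooxygenase) are listed on the array as MOXD1, DBH and PAM, and together they have 5 of its 45281 probes and are 3 of its 30854 gene symbols. The genes were selected on the posterior minus anterior difference of Moxd1, with its enzyme relatives added by family, so all differences of these genes between the lobes are given as descriptions, with no p-value, and where their probes are counted past a threshold nothing is read from the count. RNA came from the anterior and from the posterior cerebellar lobes of Swiss mice at postnatal day 7, with no treatment, and each lobe had 2 samples on 1 array each. The arrays were Illumina mouse whole-genome bead chips, on which the intensity of a probe is the mean brightness of the beads that carry its sequence. The comparison asks which genes differ between lobes of like build but different function. The labels do not say whether the samples came from separate animals or from pools, so the spread between arrays may be partly technical.

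Dbh and Pam are copper-dependent monooxygenases that use ascorbate to hydroxylate their substrate, and Moxd1 is placed with them by family. Dbh works inside the vesicles of noradrenergic neurons and turns dopamine into noradrenaline. In the brain its cell bodies lie in brainstem nuclei such as the locus coeruleus, whose axons reach the cerebellum. Pam acts on peptide precursors in the secretory pathway and leaves the amide at the C-terminus that many neuropeptides need for activity. Moxd1 resembles Dbh in sequence and is a protein of the endoplasmic reticulum whose substrate is not settled. Moxd2 (MOXD2 on the array) is a further relative and is given for comparison.

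Moxd1 was selected on its difference between the lobes, so its promoter is the one shown. These are the 250 bases before its RefSeq transcription start, on the plus strand of chr10:24223267-24223516 in GRCm38.p6. Capitals mark the GC box GGGCGG, searched on both strands.

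Moxd1: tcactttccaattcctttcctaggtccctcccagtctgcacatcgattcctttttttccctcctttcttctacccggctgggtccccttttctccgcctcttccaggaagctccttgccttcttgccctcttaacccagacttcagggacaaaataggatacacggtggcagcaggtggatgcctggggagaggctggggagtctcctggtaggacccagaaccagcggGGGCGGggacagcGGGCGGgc

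This window of Moxd1 held 2 GC boxes, which 16.7% of the 32851 promoters in the table reached or exceeded, and 8 CpG dinucleotides. Its GC content was 58.4%, against a median of 52.4% over all promoters. The windows of Pam, which has 2 listed starts, were richer, with 76.4% and 75.6% GC and 3 and 2 GC boxes. The windows of Dbh and Moxd2 had 53.2% and 48.4% GC and no GC box. The TATA box TATAAA (12.4% of promoters) and the core TAATCC bound by Otx proteins (6.25%), both searched on both strands, matched in none of these windows.

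The Moxd1 probe ILMN_2977492 was dim in the anterior and bright in the posterior lobes. Its intensity was 155.4 and 151.3 on the anterior arrays and 753.3 and 808.1 on the posterior arrays. The lobes did not overlap, and the dimmer posterior array was 4.85 times as bright as the brighter anterior array. The anterior signal was still above background, with detection p-values of 0.0278 and 0.0118, where this p is the fraction of negative controls that reach the probe's brightness, while no negative control reached the posterior signal. On the log2 scale, and with the arrays quantile normalized, the anterior lobes had 7.28 ± 0.15 (SD, n = 2 arrays) and the posterior lobes 9.62 ± 0.030. The difference was 2.34 on the log2 scale (standard error 0.13), a 5.08-fold higher signal. It ranked 8 of the 21726 tested probes, and 4 of the 19914 detected on all arrays, from the highest in the posterior lobes.

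The intensity of this probe was read from 30 to 45 beads per array. The standard error over those beads, expressed on the log2 scale, lay between 0.046 and 0.071, which covers the spread of beads on 1 array and not the spread between samples. In the anterior lobes the Moxd1 probe stood close to the lowest intensity called detected, which was 139.8 and 116.9 on those arrays. Probes in the middle of the negative controls had an intensity of 67.5 to 75.2 on the 4 arrays. With background corrected from the negative controls (neqc), the difference was 3.02, an 8.10-fold higher posterior signal.

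The second Moxd1 probe, ILMN_2737390, had an intensity of 100.3 and 101.0 on the anterior and 264.4 and 352.7 on the posterior arrays. It missed detection on the anterior arrays, with 0.219 and 0.131 of the negative controls at least as bright, and no negative control was as bright on the posterior arrays. Normalized, these were 6.68 ± 0.16 (SD, n = 2 arrays) and 8.26 ± 0.29 on the log2 scale. The anterior value is background, so the size of the difference is a bound, in which each anterior array enters with whichever was higher, the signal of this probe or the lowest signal called detected there. The posterior mean exceeded this bound, so that Moxd1 was at least 2.36-fold higher there. Detection in posterior lobes alone, on both arrays, was seen for 97 probes of the whole chip, and in anterior lobes alone for 295.

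**Figure D1:**
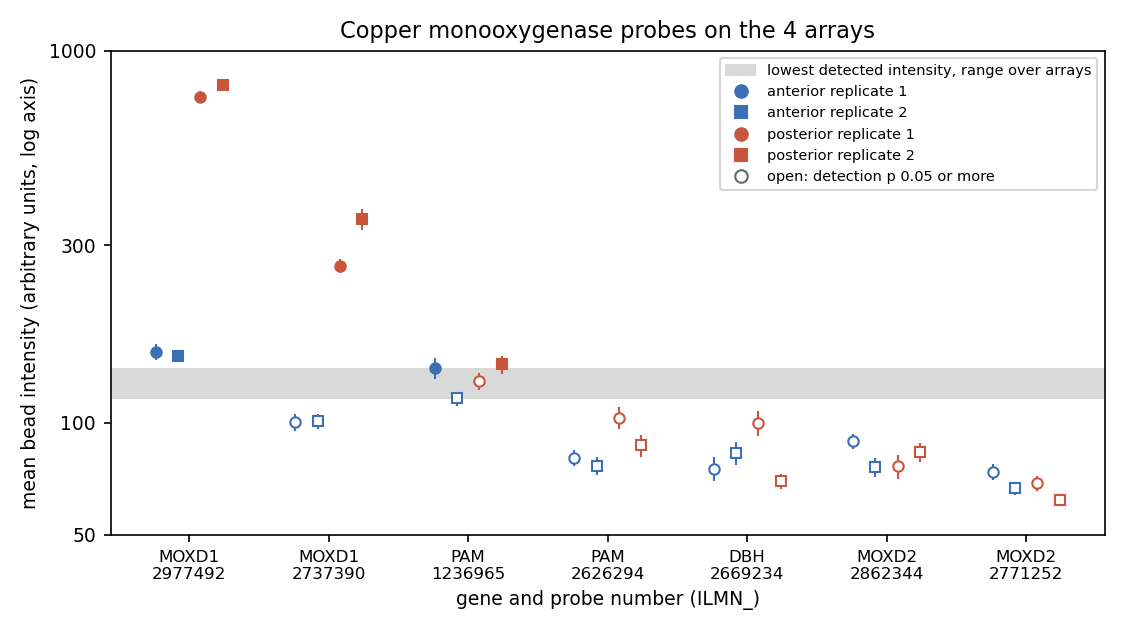
Mean bead intensity (log axis) of every probe of Moxd1, Pam, Dbh and Moxd2 on the 4 arrays, with bars for the standard error over beads, open symbols for a detection p-value of 0.05 or more, and a grey band for the range over arrays of the lowest detected intensity. The Moxd1 probes lie at 264.4 or more on the posterior arrays, while the probes of the other genes stay at or under 143.7 on every array.

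Pam was measured at the edge of detection. The probe ILMN_1236965 had an intensity of 140.3 and 116.3 on the anterior and 129.3 and 143.7 on the posterior arrays, and was detected on 1 array of each lobe. The lobes overlapped, and the normalized means were 7.02 ± 0.016 (SD, n = 2 arrays) for the anterior and 7.07 ± 0.092 for the posterior lobes, on the log2 scale. The difference was 0.05 with a standard error of 0.10. The other Pam probe, ILMN_2626294, was not detected on any array. Its intensity was 80.5 and 76.6 on the anterior and 103.1 and 87.1 on the posterior arrays, and no fold is given for it.

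The Dbh probe ILMN_2669234 was not detected on any array either. Its intensity was 75.4 and 82.8 on the anterior and 99.9 and 69.6 on the posterior arrays, and the lobes overlapped. Between 0.190 and 0.589 of the negative controls were at least as bright. Both Moxd2 probes were at background too, between 62.1 and 89.4. A dim probe on this chip does not show that a transcript was absent. The probes of the Purkinje cell genes Calb1, Car8 and Pcp4 were also not detected on any array, at intensities between 59.4 and 85.0, although Purkinje cells were well represented by Pcp2, whose brighter probe lay between 15273.3 and 18402.3.

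Of the 5 probes of Moxd1, Dbh and Pam, 3 were bright enough to be tested, that is detected on at least 2 of the 4 arrays. By limma 1 of the 3, Moxd1 ILMN_2977492, was under an adjusted p of 0.05, against 0.106% of all tested probes. Both Moxd1 probes passed the criterion of the study (over 1.2-fold with an unadjusted p under 0.05), which 8.29% of all tested probes passed. Arrays of one lobe all lay above or all below those of the other for 42.6% of the tested probes, both Moxd1 probes among them. The probe ILMN_2737390 was tested only because of its posterior arrays, so its place in these counts rests on anterior values at background. Moxd1 was selected on this contrast, so nothing is read from these counts. Moxd1 ILMN_2977492 was past the adjusted p by limma on all 4 arrays but not without either posterior array or with the methods' t-test, and its difference without 1 array lay between 2.24 and 2.43.

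**Figure D2:**
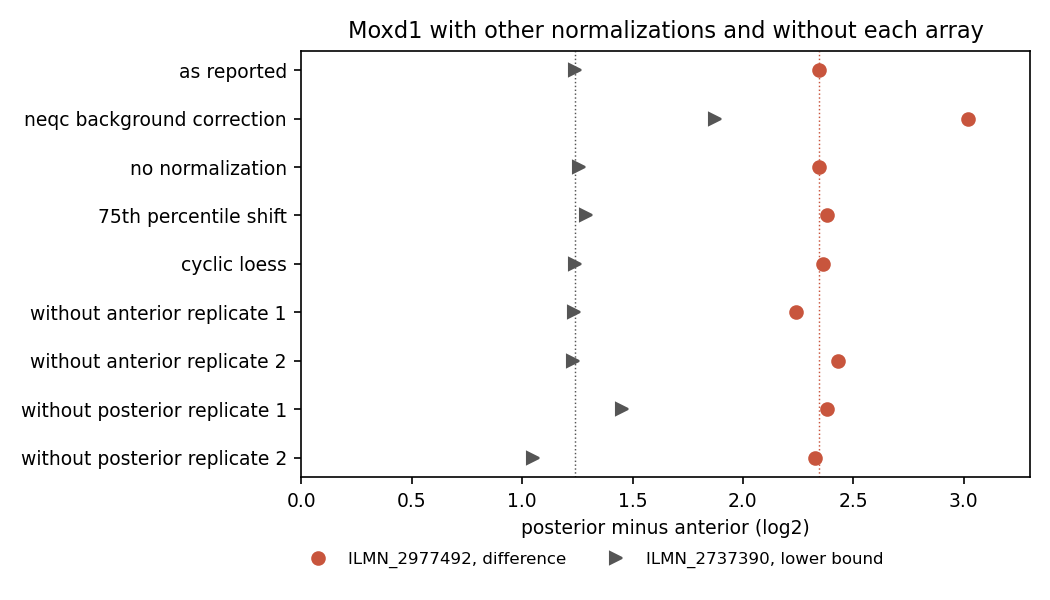
Posterior minus anterior difference (log2) of Moxd1 ILMN_2977492 and the lower bound for ILMN_2737390, as reported, with other normalizations and without each array. Background correction moves the difference to 3.02 and the bound to 1.87, and the other settings keep the difference between 2.24 and 2.43.

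No tested gene of the pathways around these enzymes differed between the lobes by as much as Moxd1, and the closest in size was Cck, at -1.10. Moxd1 was selected for its difference, so nothing is read from this comparison. Substrate and cofactor supply, copper handling, peptide processing and receptors were followed in 10 lists with 132 genes, of which 124 were on the array and 77 were tested, each by the brightest of its tested probes. Of the 77 genes, 11 passed the criterion of the study by limma, 7 higher and 4 lower in the posterior lobes, against 7.92% of all 15615 tested genes (3.45% higher and 4.46% lower). None passed the adjusted p by limma, which 0.128% of all genes did, or by the methods' t-test, and 13 of the 77 had an unadjusted p under 0.05 by limma. Their median difference was 0.013 on the log2 scale, against 0.0079 over all genes. The count of 11 was 19 without anterior replicate 1, 7 without posterior replicate 1 and 5 without posterior replicate 2, and 3 with the methods' t-test. Among the 71 genes with a probe detected on all 4 arrays it was 9, without Slc6a2 and Cpz, each of which was at background in 1 lobe.

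In the synthesis of catecholamines, 7 of 10 genes were tested. Ddc, the decarboxylase that makes dopamine, was lower in the posterior lobes, with an intensity of 875.5 and 694.9 on the anterior against 514.4 and 509.3 on the posterior arrays. The difference of Ddc was -0.59 (standard error 0.11, adjusted p = 0.20 by limma), and a second detected probe had -0.47. Pcbd1, which recycles the pterin cofactor of the aromatic amino acid hydroxylases, was higher, from 188.1 and 170.5 to 230.8 and 246.4. Its difference was 0.41 (standard error 0.11, adjusted p = 0.34 by limma). Th, the hydroxylase that makes the precursor of dopamine, was not detected on any array, with intensities between 71.7 and 81.7.

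Of the genes for storage, transport and breakdown of catecholamines, 6 of 10 were tested and 1, Slc6a2, passed the criterion. This gene, the noradrenaline transporter, was detected on both anterior arrays, at 165.1 and 124.0, and on neither posterior array, at 119.2 and 100.3. Slc6a2 was tested only because of its anterior arrays, so its call rests on a posterior value at background and is no support for a difference. By the bound it was at least 1.09-fold lower in the posterior lobes, and its other 2 probes were not detected on any array. The vesicular transporter gene Slc18a2 and the monoamine oxidase gene Maoa were not detected on any array.

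The supply of ascorbate and electrons showed no gene past the criterion among 6 tested, with differences between -0.15 and 0.25. These include Cyb561, the vesicle membrane protein that returns electrons to the ascorbate used by Dbh and Pam, at -0.06 with a standard error of 0.10. Of 13 tested genes of copper uptake, chaperones and export, 2 passed the criterion. Ceruloplasmin (Cp), a copper-binding ferroxidase, was higher by 0.48 (standard error 0.16), and its other 2 detected probes were at 0.21 and 0.52. Steap2, a metalloreductase, was lower, at -0.28 (standard error 0.10). The copper transporters that load enzymes in the secretory pathway, Atp7a and Atp7b, were at 0.10 and 0.13, and the 3 tested metallothioneins lay between -0.22 and 0.18, none of them past the criterion.

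Other copper enzymes held 2 genes past the criterion among 7 tested, both higher. Lox, which cross-links collagen and elastin, had an intensity of 393.5 and 416.3 on the anterior and 640.4 and 815.0 on the posterior arrays. Its difference was 0.86 (standard error 0.17, adjusted p = 0.21 by limma). Aoc3, a copper amine oxidase, was higher by 0.40 (standard error 0.16) on its brighter probe and had 0.05 on the other, which was detected on 1 array of each lobe. The median of the list was 0.19.

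On the side of Pam, 1 of 14 tested genes of peptide precursor processing passed the criterion. This was Cpz, a carboxypeptidase of the extracellular matrix, which was not detected on the anterior arrays, at 96.2 and 111.3, and reached 200.0 and 202.5 on the posterior arrays. By the bound Cpz was at least 1.55-fold higher there, but it was tested only because of those arrays, so its call rests on an anterior value at background and is no support for a difference. The processing enzymes of neuroendocrine granules were near 0, with Cpe at 0.02, Pcsk2 at -0.04 and Scg5 at 0.10. The 6 tested partners of Pam, among them Kalrn, an exchange factor that binds the cytosolic tail of Pam, held no gene past the criterion. Probes of Kalrn disagreed, with 0.25 on the brightest and -0.21 and 0.13 on the other 2 tested.

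Precursors of amidated peptides were mostly below detection. Of 33 on the array, 22 were not detected on any array and 10 were tested. Cck, the cholecystokinin precursor, was lower in the posterior lobes, from 667.9 and 767.2 to 269.5 and 406.2. The difference of Cck was -1.10 (standard error 0.23, adjusted p = 0.24 by limma). Grp, the precursor of gastrin-releasing peptide, was higher, from 183.8 and 152.0 to 252.5 and 229.4, a difference of 0.52 (standard error 0.11, adjusted p = 0.25 by limma).

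**Figure D3:**
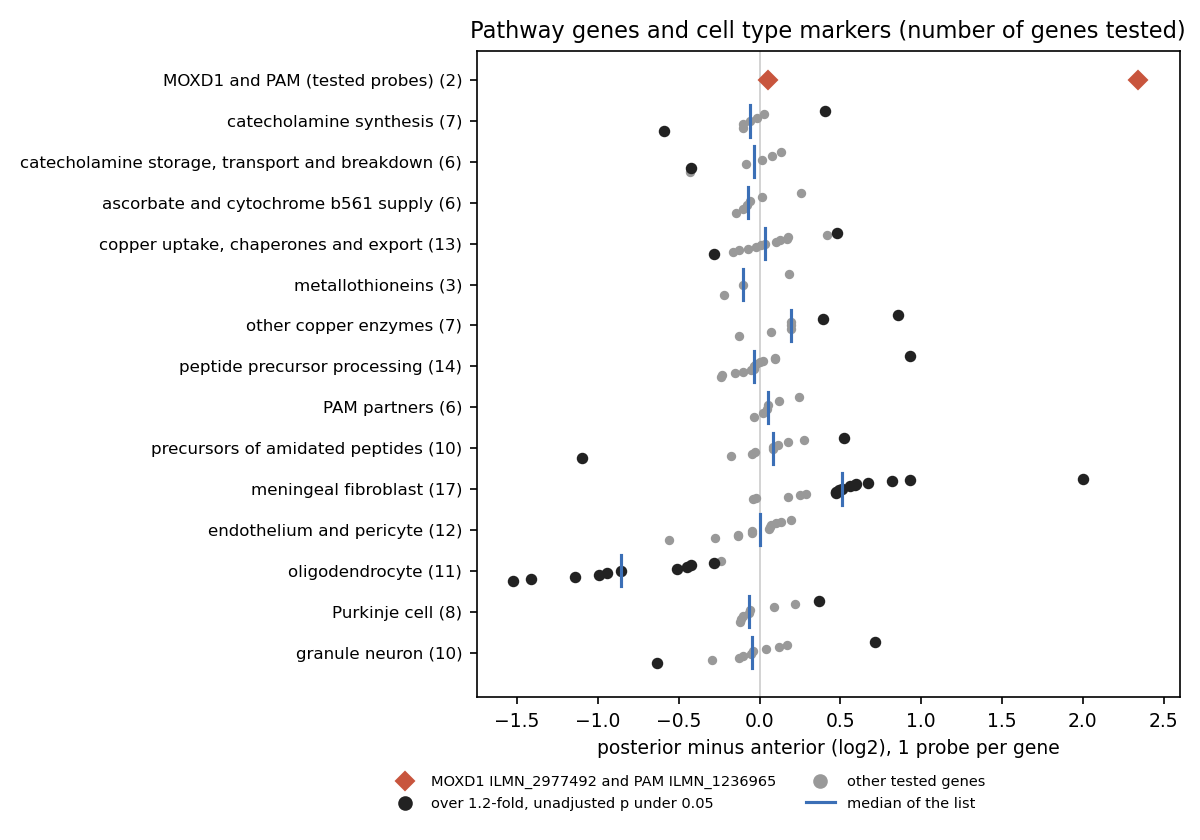
Posterior minus anterior difference (log2) of each tested gene, 1 probe per gene, in 9 of the pathway lists and in 5 lists of cell type markers, with the number of genes tested, the list median as a line and black points for genes over 1.2-fold with an unadjusted p under 0.05. Moxd1 at 2.34, selected on this contrast, lies to the right of all genes drawn, the nearest being the fibroblast gene Ogn at 2.00. Marker lists that are not drawn hold genes above Moxd1. These are Otx2 at 3.82, listed for choroid plexus, and Tlx3, listed for brainstem and cochlear neurons, at a fitted 2.59. Tlx3 was at background in the anterior lobes. The study places Tlx3 in posterior granule neurons and names Otx2 among genes restricted to parts of the developing cerebellum. Neither value is read as a sign of the listed cell type. Differences of genes at background in a lobe (Slc6a2, Cpz, Crabp2 and Fmod among the black points) are fitted values and not measured folds.

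Among the lists of cell type markers, that of meningeal fibroblasts had the highest median difference between the lobes and that of oligodendrocytes the lowest. Of 18 markers of meningeal fibroblasts, the connective tissue cells of the brain's coverings, 17 were tested, 15 of them were higher in the posterior lobes by value and 11 passed the criterion, all higher, against 3.45% of all tested genes. The 11 include Crabp2 and Fmod, which were at background on both anterior arrays and were tested only because of the posterior arrays. They also include Col3a1, detected on 1 anterior and both posterior arrays. With detection required on all 4 arrays, which drops these genes, 8 of 14 passed. The only marker not detected on any array was Foxc2. The summed signal of the 17 after normalization was 21655 and 24015 on the anterior and 31408 and 36559 on the posterior arrays. The median difference of the 17 was 0.51, against 0.0079 over all tested genes. Ogn, a small proteoglycan, had 2.00 (standard error 0.18, adjusted p = 0.035 by limma), and Dcn, the proteoglycan decorin, had 0.93 (standard error 0.071, adjusted p = 0.024 by limma). The count of 11 was 3 without posterior replicate 2 and 4 with the methods' t-test. In bulk tissue more cells of a type and more RNA per cell cannot be told apart, and the part of these cells in the Moxd1 difference was not tested.

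Of 12 oligodendrocyte markers 11 were tested, all were lower by value in the posterior lobes and 10 passed the criterion, against 4.46% of all tested genes that were lower. Their summed signal was 111546 and 108978 on the anterior against 78349 and 73176 on the posterior arrays. The median difference of these 11 was -0.86, against 0.0079 over all tested genes. Markers of endothelium and pericytes had a median of 0.0029, with none of 12 past the criterion. The summed signal of choroid plexus markers overlapped between the lobes, at 5086 and 15371 on the anterior and 8546 and 10953 on the posterior arrays. A large part of the posterior sums came from the homeobox gene Otx2, with an intensity of 4935.9 and 3688.6 there against 351.3 and 262.0. The choroid plexus marker Ttr ranged from 325.9 to 9501.9 over the 4 arrays. Only the sum of anterior replicate 2, at 15371, is large enough for the highest Ttr value beside Otx2. The overlap of the sums thus rests on 1 array. Of 7 tested, 5 were lower by value, and the median was -0.33, but 0.18 without anterior replicate 2. Otx2 was higher, at 3.82, and Clic6 and Enpp2 were lower past the criterion. The study names Otx2 among genes restricted to parts of the developing cerebellum, so its value is not read as a sign of choroid plexus. Of 10 neural crest and Schwann cell markers on the array, 4 were tested, and Sox10, which oligodendrocytes also express, was lower past the criterion. The part of these cells in the values of Moxd1 was not tested.

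For Dbh the markers of the matching cell type were near or below detection, which does not show that these cells or their axons were absent. Of 8 markers of noradrenergic neurons 6 were not detected on any array, among them Dbh, Th, Slc18a2 and Phox2a. Slc6a2, given above, was detected on the anterior arrays alone.

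The probes whose pattern over the 4 arrays was closest to Moxd1 ILMN_2977492 were ranked by the root mean square distance between log2 profiles, each centred on its own mean, over the 19913 other probes detected on all arrays. The closest were both probes of H19, a maternally expressed non-coding RNA, at distances of 0.128 and 0.181. Mgp, a calcification inhibitor of the extracellular matrix, was at 0.233 and Ogn at 0.252. Then came Chrna3, the nicotinic receptor subunit, at 0.269, Clasp2, a microtubule plus-end protein, at 0.362, Col28a1, a collagen chain, at 0.508, and Tmem121 at 0.546. For scale, the second Moxd1 probe was at 0.401 and a flat profile would be at 1.17. The lobe differences of these 8 probes lay between 1.29 for Tmem121 and 2.54 for H19 ILMN_1256343. The probes were chosen by likeness to a contrast already used, so no test is given.

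Within the posterior lobes the nearest profiles differed in their replicates. The intensity of H19 ILMN_2906728 was 168.6 and 145.7 on the anterior and 641.5 and 827.8 on the posterior arrays. For Ogn it was 282.1 and 223.3 against 824.6 and 1192.4, and for Mgp 262.4 and 276.7 against 898.4 and 1356.9. In H19, Mgp and Ogn posterior replicate 2 was the brighter, by more than in Moxd1 ILMN_2977492. The second Moxd1 probe was also brighter on posterior replicate 2, at 352.7 against 264.4 on replicate 1, so the 2 Moxd1 probes differed in this. In Chrna3, with 225.7 and 227.1 against 849.6 and 760.4, and in Clasp2, with 167.7 and 121.2 against 506.7 and 437.2, posterior replicate 1 was the brighter.

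**Figure D4:**
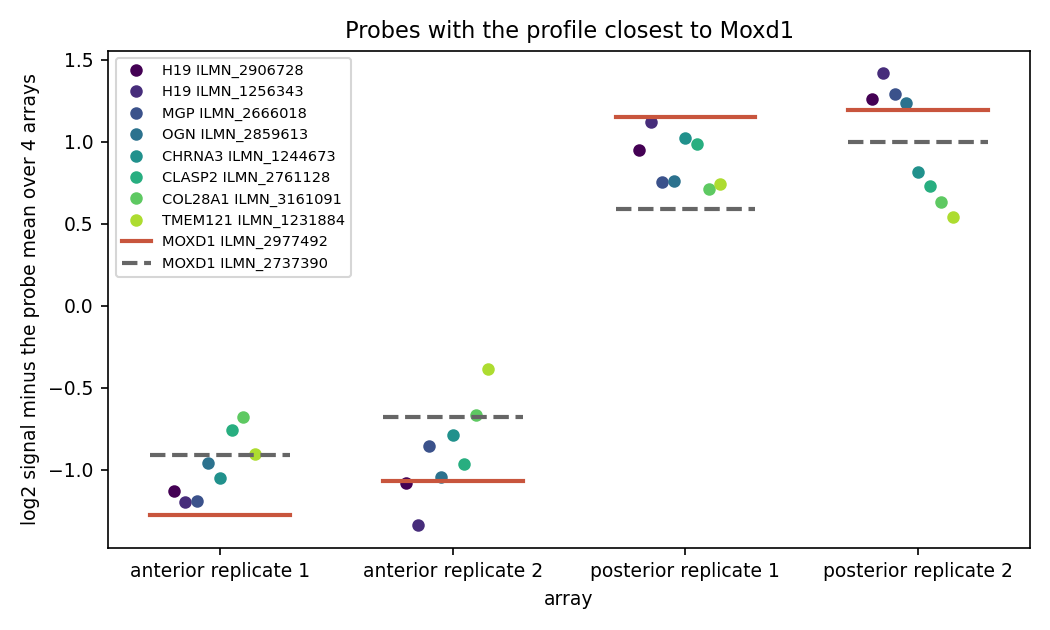
Log2 signal minus the mean of the probe over the 4 arrays, for both Moxd1 probes (bars) and the 8 probes with the closest profile to ILMN_2977492 (points). All probes lie below 0 on both anterior arrays and above 0 on both posterior arrays, and H19, Mgp and Ogn are higher on posterior replicate 2 than on replicate 1 while Chrna3 and Clasp2 are lower.

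Across the series the arrays were alike in depth of measurement. The median intensity was 110.2 to 129.6, each probe was read from 40 to 42 beads at the median, and 46.5% to 47.6% of probes were detected. The number of arrays limits the precision, and for 2 arrays a lobe the smallest two-sided p of an exact permutation test is 0.333. By the criterion 716 probes were higher and 1086 lower in the posterior lobes, a split that became 977 and 850 with each array shifted to its 75th percentile. The anterior arrays differed more from each other than the posterior arrays did, with an SD of the log2 difference over tested probes of 0.318 against 0.203. Markers of the labelled tissue were present, with 10 of 12 granule neuron, 8 of 11 Purkinje cell and 10 of 12 Bergmann glia and astrocyte genes on the array tested.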

How the data were processed

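Per the file headers, the authors exported the table from GenomeStudio 1.9.0 with normalization and error model switched off, and it was used as deposited. For each probe and array it gives a mean intensity over beads, the SD over those beads, their number, and a detection score, deposited as a fraction, which is 1 minus the detection p-value. Another 16 columns of minima, maxima, array numbers and empty SDs were not used. Columns were matched to samples by the sample number in the labels.

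Intensities were quantile normalized, floored at 1 and log2 transformed with limma 3.58.1 in R 4.3.3. The fit took probes detected (p under 0.05) on 2 or more of 4 arrays (lmFit, eBayes with an intensity trend, posterior minus anterior) with Benjamini-Hochberg adjustment over all 21726 of them. The study names a floor of 1, log base 2 and a criterion of over 1.2-fold with p under 0.05, and a normalization between arrays is not given in the sources used here.

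The genes, lists and tests were chosen with earlier results of these data known. Named were all probes of the 3 enzymes and Moxd2, listed genes past the criterion or with large differences, and the 8 probes nearest to Moxd1. Some listed genes were named as background after their values were seen, among them Calb1, Car8, Pcp4, Th, Slc18a2, Maoa, Cyb561, Atp7a, Atp7b, Cpe, Pcsk2 and Scg5. Sequences are RefSeq promoters of GRCm38.p6, matched by symbol for 4 of 4 genes. Alternatives were neqc (offset 16), no normalization, a 75th percentile shift, cyclic loess, other detection filters, no trend, the methods' t-test, a replicate block, and the fit without each array. Values of some single listed genes are not reported here. The slide could not be used as a block, since the table names none.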

Additional observations from a re-analysis of the deposited data

How the results depend on the processing

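The Moxd1 difference of 2.34 and its bound of 1.24 (log2) moved by more than the spread between replicates with neqc, to 3.02 and 1.87. Leaving out 1 array moved them by less, to between 2.24 and 2.43 and between 1.05 and 1.45. Filters, trend, test and block leave a difference as it is by construction. The Pam difference of 0.05 was 0.13 with the 75th percentile shift, and its probe was not tested with the stricter filters or without anterior replicate 1 or posterior replicate 2. Dbh was not detected on any array, so it was fitted only in the setting without a filter, and no value is given for it.

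The 23 probes past the adjusted p were 123 without normalization, 73 without a filter, 13 without the trend, 0 with the methods' t-test (by which 1763 had an unadjusted p under 0.05) and, leaving out 1 array, between 0 and 2538. The highest number, 2538, came without anterior replicate 1. Without anterior replicate 2 there were 221, and 0 by limma without posterior replicate 1 or 2, where 785 and 825 had an unadjusted p under 0.05 by limma and the lone posterior array is assumed to vary like the anterior ones. The 1802 probes past the criterion of the study were 741 with the methods' t-test and between 766 and 4677 without 1 array, 766 and 811 of them without posterior replicate 1 and 2 and 4677 without anterior replicate 1.

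With the replicate block 588 probes passed the adjusted p and 2818 the criterion. The labels do not pair the samples. Over tested probes, replicate 1 minus replicate 2 of one lobe had r = 0.46 with that of the other, a description across probes. All 11 pathway genes past the criterion kept their direction in each alternative that tested them.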
